A study of Capra hircus with 40 samples.

Results

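MicroRNA levels in the uterus were compared between goats sampled on day 1 and goats sampled in month 6 after birth. The comparison takes every miRNA row of the deposited read-count table in 10 of the 40 libraries of the series, 5 at each age. All goats were untreated females of the Jining gray breed raised on 1 farm, and the series, which also covers the ovary and months 2 and 4, follows both organs through sexual maturation. Each library carries the number of a separate individual, and each was made from total RNA of uterine tissue. The labels do not say whether the layers of the organ were separated, and the stage of the estrous cycle at month 6 is not given in the sources used here. The count table lists 427 miRNAs, of which 331 passed the filter on low counts in the uterus and were tested. The other 96 had means of at most 3.09 counts per 1000000 (CPM) over the 10 libraries, and 11 of them were at 0 in all 10.

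The uterus is built from an inner lining of epithelium over a connective-tissue stroma, wrapped in smooth muscle and supplied by blood vessels. At birth the lining is simple. In ruminants the uterine glands bud and branch after birth, the muscle layers thicken, and the organ becomes responsive to ovarian steroids around puberty. MicroRNAs are short RNAs cut from hairpin precursors. The 5p and the 3p arm of a hairpin can each become a mature miRNA, which guides a repressor complex to messenger RNAs that match its seed. Many are markers of a cell type or of a growth state: let-7 accumulates as cells differentiate, the miR-17-92 cluster promotes proliferation, miR-143 and miR-145 are abundant in smooth muscle, and the miR-200 family is typical of epithelium.

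Library totals ran from 7005651 to 8442089 counts at day 1 and from 7026495 to 7835510 at month 6, so depth did not separate the ages. The number of miRNAs with at least 1 count was 384.6 ± 1.67 (SD, n = 5) at day 1 and 362.8 ± 6.42 (SD, n = 5) at month 6. miR-143-3p was the most abundant miRNA in all 10 libraries, and the uterine markers of smooth muscle, epithelium, stroma and endothelium were all present. The ovarian miRNA miR-202-5p was at 0.246 to 0.856 CPM at day 1 and 0 to 0.268 CPM at month 6, and miR-202-3p was at 0 in all 10 libraries. At month 6, replicates 4 and 5 stood apart from replicates 1 to 3. Spearman's rho between the libraries over miRNAs was 0.9783 between replicates 4 and 5 and 0.9592 to 0.9827 among replicates 1 to 3, but 0.9044 to 0.9399 across the 2 sets. They are the same libraries in which let-7a-5p was low and let-7b-3p high, so values without them are given beside the results below that rest on them. Both libraries are labelled like the others, and what sets them apart was not tested.

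Of the 331 miRNAs tested, 155 passed the test at month 6 against day 1, with 90 higher and 65 lower. That is 46.8% of the miRNAs tested, 27.2% called higher and 19.6% called lower, and the counts below for groups of miRNAs are to be read against these shares. A call is an adjusted p under 0.05 in edgeR's quasi-likelihood test. Changes, including those after "rose by" and "fell by", are on the log2 scale and given ± SE with 5 libraries an age, and levels are CPM listed in the order of replicates 1 to 5. The median log2 change over all 331 was 0.04, the smallest change called was 0.79 upward and 0.67 downward. In 67 of the 90 higher calls all 5 month 6 libraries lay above all 5 at day 1, and in 52 of the 65 lower calls all 5 lay below. Over all miRNAs tested, the ages did not overlap in 138, or 41.7%. In a bulk tissue a lower level can come from fewer cells of a type or from less of the miRNA per cell, and these cannot be told apart.

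The balance of the calls moved with the scaling and with the 2 libraries that stood apart. Without month 6 replicates 4 and 5 there were 82 higher (23.6%) and 94 lower (27.1%) calls among 347 miRNAs tested, 50.7% of them. With DESeq2 size factors in place of TMM scaling the calls were 82 higher and 89 lower, and the median over all miRNAs shifted from 0.04 to -0.14. The Wald test of DESeq2 gave 87 higher and 101 lower, and a filter of at least 10 CPM in 5 libraries gave 58 and 79. Of the 155 calls, 125 were also called in the same direction without replicates 4 and 5, 74 of them higher and 51 lower.

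The clearest rises were in miRNAs present at low or moderate levels on day 1. miR-195-3p had the smallest p of all miRNAs tested. It comes from the hairpin it shares with miR-195-5p, a miRNA of the family that restrains the cell cycle. Its level was 27.9, 18.7, 40.2, 41.6 and 49.5 CPM in the day 1 libraries and 317, 418, 288, 426 and 312 CPM in the month 6 libraries. The ages were far apart, and month 6 replicates 4 and 5 lay among the others. The log2 change was 3.35 ± 0.39 (adjusted p = 9.37e-06), or 10.2-fold. miR-365-3p rose nearly as clearly, from 31.7, 18.2, 27.4, 44.6 and 52.7 CPM to 221, 258, 179.7, 300.3 and 262 CPM. Again no library of one age reached the other, and the log2 change was 2.87 ± 0.34 (adjusted p = 9.58e-06). miR-193b-5p, which lies beside miR-365 in mammalian genomes, went from 0.670, 1.48, 0.948, 2.90 and 1.57 CPM to 16.7, 25.1, 11.4, 40.6 and 33.8 CPM, a log2 change of 4.18 ± 0.61 (adjusted p = 6.65e-05). Its partner arm miR-193b-3p rose by 2.26 ± 0.38 (adjusted p = 1.53e-04). The counts of miR-193b-3p differ from those of miR-193a by a median of 1.32% and at most 4.55% over the 40 libraries, so reads of these 2 entries cannot be told apart. Both are among the 90 higher calls.

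**Figure D1:**
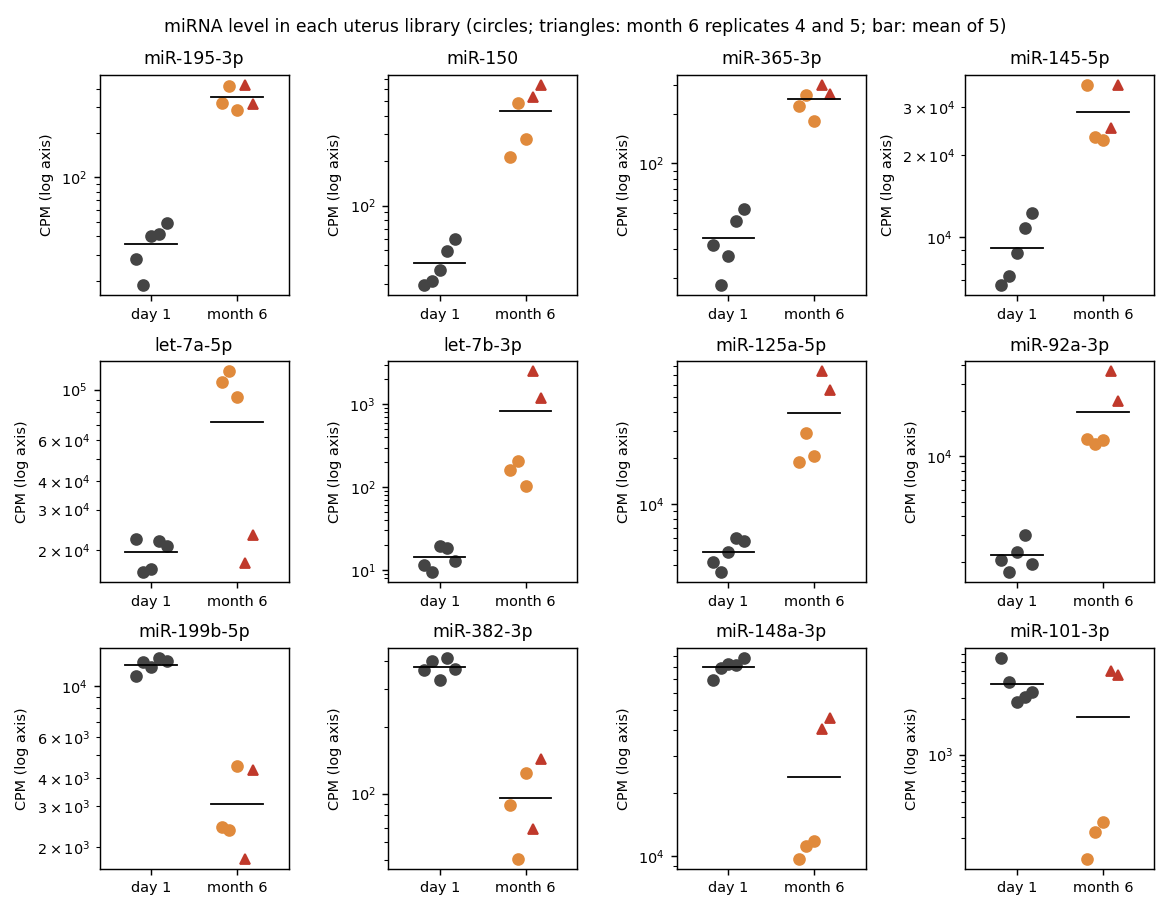
Level of 12 miRNAs in each uterus library in CPM on a log axis, with dark circles for the 5 day 1 libraries, orange circles for month 6 replicates 1 to 3, red triangles for month 6 replicates 4 and 5, and bars for the mean of 5. The ages do not overlap for miR-195-3p, miR-150, miR-365-3p, miR-145-5p, let-7b-3p, miR-125a-5p, miR-92a-3p, miR-199b-5p, miR-382-3p and miR-148a-3p, while the 2 triangles fall at the day 1 level for let-7a-5p and miR-101-3p.

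Other miRNAs of these levels rose by as much. miR-197-3p had a log2 change of 3.99 ± 0.67 (adjusted p = 1.53e-04), from 41.6, 42.8, 62.8, 60.4 and 67.9 CPM to 361, 487, 314, 1830.5 and 986 CPM. miR-328-3p changed by 3.60 ± 0.60, from 99.5 to 116 CPM to 571 to 2344 CPM. For both, all month 6 libraries were higher than any at day 1, and replicates 4 and 5 were the highest. The brain-enriched miR-129-3p rose by 3.98 ± 0.62, from 0.536 to 3.32 CPM to 6.97 to 34.4 CPM. miR-504, a regulator of the tumour suppressor p53, rose by 3.39 ± 0.62, miR-1343 by 3.38 ± 0.55 and miR-1306-5p by 3.21 ± 0.65. miR-204-5p, which is abundant in epithelia such as that of the eye, rose by 3.18 ± 0.74, and its month 6 libraries were uneven. They read 1193, 3811, 113, 253 and 256 CPM against 175, 147, 46.1, 186 and 67.7 CPM at day 1, so month 6 replicate 3 lay inside the day 1 range. Without month 6 replicate 2 the change was 1.93. Among abundant and steady risers, miR-320-3p, which is made without the enzyme Drosha, went from 481 to 856 CPM to 2296 to 4789 CPM and miR-423-5p from 699.7 to 1071 CPM to 3435 to 5859 CPM. Their log2 changes were 2.41 ± 0.37 and 2.49 ± 0.38. The other arm, miR-423-3p, rose by 2.60 ± 0.40 and miR-28-3p by 1.80 ± 0.27. Without replicates 4 and 5 all of these remained called, but miR-197-3p came to 2.71, miR-328-3p to 2.58, miR-504 to 1.90 and miR-1306-5p to 2.30.

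The let-7 family, which represses growth genes and accumulates with differentiation, had 16 members tested, of which 6 rose and 1 fell. The median log2 change was 0.71, against 0.04 over all miRNAs. With month 6 replicates 4 and 5 left out it was 0.29, against -0.08, with 7 members higher and 1 lower. let-7a-5p stood at 22406, 16057, 16484, 21790.5 and 20812 CPM at day 1 and at 108314, 119940.0, 92586, 17537 and 23140.3 CPM at month 6. Replicates 1 to 3 of month 6 were over 4 times the highest day 1 library, while replicates 4 and 5 were within or just above the day 1 range. The log2 change was 1.85 ± 0.43 (adjusted p = 0.00197), and 2.38 ± 0.38 without replicates 4 and 5. let-7b-5p, whose hairpin neighbours that of let-7a, followed the same split, with 8375, 6912, 7216, 9479.7 and 10745 CPM at day 1 and 51154, 64059, 47026, 8639.6 and 10304 CPM at month 6. Its log2 change was 2.04 ± 0.47 (adjusted p = 0.00186). let-7d-5p rose by 1.22 ± 0.37, and its replicates 4 and 5 (461 and 601 CPM) were likewise close to the day 1 range of 439 to 586 CPM. Its call was lost without day 1 replicate 3 or any of month 6 replicates 1 to 3, with log2 changes of 1.00 to 1.43 as single libraries were left out. The filter of at least 10 CPM in 5 libraries lost it as well.

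The 3p arms of the same hairpins showed the opposite split. let-7b-3p had the largest log2 change of all 331 miRNAs, 6.06 ± 1.21 (adjusted p = 6.41e-04). It was at 11.4, 9.47, 19.2, 18.2 and 12.7 CPM at day 1 and at 161, 206, 103, 2489 and 1198 CPM at month 6. Every month 6 library was above every day 1 library, and replicates 4 and 5 were at least 5 times above replicates 1 to 3. Without those libraries the change was 3.38 ± 0.92. let-7d-3p changed by 3.66 ± 0.72, with 206, 211, 169.6, 1199 and 1051 CPM at month 6 against 35.7 to 60.5 CPM at day 1, and by 1.91 without replicates 4 and 5. let-7e-3p was called higher at 1.503 ± 0.47, but it was not without replicate 4 (1.11, adjusted p = 0.0532) or without both (0.41 ± 0.37, adjusted p = 0.369).

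Other members were not called higher with all 5 month 6 libraries. Of these, let-7c-5p gave 0.73 ± 0.44 (adjusted p = 0.171) and let-7e-5p 0.75 ± 0.49 (adjusted p = 0.210). Both were called higher without replicates 4 and 5, at 1.23 (adjusted p = 0.0286) and 1.33 (adjusted p = 0.0198). let-7i-5p fell from 37191, 40788, 43801, 42720.5 and 44987 CPM to 25189.7, 24249, 25705, 8586 and 14697 CPM, with no overlap between the ages. Its log2 change was -1.11 ± 0.35 (adjusted p = 0.0140), and the call was lost without replicates 4 and 5 (-0.83, adjusted p = 0.147), without day 1 replicate 3 (-1.08) and with no filter on low counts (-0.74). let-7f-5p, the most abundant member at day 1, gave -0.32 ± 0.29 (adjusted p = 0.373) and let-7g-5p -0.16 ± 0.28 (adjusted p = 0.649), and neither passed the test. Summed over the family, the level was 147928 to 183849 CPM at day 1. At month 6 it was 312849, 331088 and 298710.0 CPM in replicates 1 to 3, all above day 1, and 73356 and 98394 CPM in replicates 4 and 5, both below it. How reads that match several let-7 members were assigned is not given in the sources used here, so the split among members is uncertain.

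The miR-99, miR-100 and miR-125 miRNAs share transcripts with let-7 genes, and miR-125 is the relative of the first developmental timing miRNA, lin-4. Of 9 tested, 5 rose and none fell, with a median of 0.84. Without month 6 replicates 4 and 5 there were 4 higher and 1 lower, miR-99a-3p at -2.05, with a median of 0.51, and the Wald test of DESeq2 gave 5 higher and 1 lower. miR-125a-5p read 4209, 3624, 4913, 6056 and 5757 CPM at day 1 and 18789, 29122, 20689, 73713 and 56011 CPM at month 6. The lowest month 6 library was about 3 times the highest at day 1, and replicates 4 and 5 were again the highest. The change came to 3.13 ± 0.48 (adjusted p = 7.91e-05). miR-125b-5p rose by 2.45 ± 0.47 (adjusted p = 4.82e-04), from 6482 to 8661 CPM to 18548 to 72189 CPM. miR-99b-5p, from the hairpin next to let-7e and miR-125a in mammals, rose by 1.66 ± 0.37. Without replicates 4 and 5 these 3 came to 2.12, 1.39 and 0.95, and all were still called. miR-99a-5p, among the 5 most abundant miRNAs, had 28008 to 48614 CPM at day 1 and 27204, 34106, 39124, 126326 and 84719 CPM at month 6. Only replicates 4 and 5 lay above the day 1 libraries, and its change of 0.80 ± 0.43 (adjusted p = 0.131) was not called.

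Both miRNAs of the smooth muscle cluster changed, in opposite directions. miR-145-5p, which holds smooth muscle in its contractile state, was at 6687, 7186, 8785, 10852 and 12266 CPM at day 1 and at 36407, 23371, 22806, 25229.8 and 36347 CPM at month 6. The groups did not overlap, and replicates 4 and 5 were within the range of the other 3. The log2 change was 1.68 ± 0.28 (adjusted p = 1.43e-04), or 3.20-fold. Its partner arm miR-145-3p rose by 0.97 ± 0.30 (adjusted p = 0.0135), though not under the stricter filter (0.64, adjusted p = 0.0503). miR-143-3p, made from the same transcript, was at 316509, 268367, 324755, 224150.0 and 292105 CPM at day 1 and 212000.0, 143845, 157690.0, 126718 and 130623 CPM at month 6. All 5 month 6 libraries were below all 5 at day 1. The log2 change of -0.88 ± 0.34 (adjusted p = 0.0392) was the weaker of the 2, and its call was lost in 9 of the 19 alternatives run. These were no filter on low counts, leaving out day 1 replicate 1, 3 or 5 or month 6 replicate 2, 3, 4 or 5 (-1.12 to -0.80), and the fit without replicates 4 and 5 (-0.81, adjusted p = 0.134). Since miR-143-3p alone held 22.4% to 32.5% of the counts of a day 1 library and 12.7% to 21.2% at month 6, a lower share of it alone raises the share of all others in values scaled to the library total.

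Striated muscle markers, taken as a list of another cell type, did not rise together. miR-1 fell from 7874, 6821, 6114, 6873 and 5760.5 CPM to 2054, 1417, 1318, 4119 and 4373 CPM, with every month 6 library below day 1. Its log2 change was -1.23 ± 0.50 (adjusted p = 0.0474), and -2.12 without replicates 4 and 5. miR-133a-3p, which lies beside a miR-1 gene in mammals, rose by 0.92 ± 0.32 (adjusted p = 0.0226), from 171 to 340.1 CPM to 357 to 692 CPM. That call was lost without day 1 replicate 1, day 1 replicate 3 or month 6 replicate 1, with changes of 0.65 to 1.03 as single libraries were left out. The stricter filter lost it as well. miR-206 was not called (1.165 ± 0.59, adjusted p = 0.110), but was called higher without replicates 4 and 5 (1.89, adjusted p = 0.00767). Over the 6 tested, 1 higher and 1 lower, the median was -0.48, and -1.32 without replicates 4 and 5, when 2 were higher and 2 lower. miR-1 and miR-206 are related in sequence, and whether reads were shared between these 2 entries was not tested.

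miRNAs of leukocytes moved in both directions. miR-150, a marker of mature lymphocytes, was at 29.3, 31.1, 36.8, 49.3 and 59.95 CPM at day 1 and 212, 489.8, 281, 538 and 647 CPM at month 6. The lowest month 6 library was over 3 times the highest at day 1. The log2 change was 3.46 ± 0.44 (adjusted p = 1.67e-05), or 11.02-fold. miR-155-5p, induced in activated lymphocytes and macrophages, rose by 1.67 ± 0.45 (adjusted p = 0.00558), from 127, 141, 165, 122 and 177 CPM to 609.9, 610.3, 871, 165 and 145 CPM. Here month 6 replicates 1 to 3 were high and replicates 4 and 5 lay within the day 1 range. miR-146a, a brake on innate immune signalling, fell by 1.82 ± 0.72 (adjusted p = 0.0440), from 31.9 to 48.2 CPM to 4.21 to 18.4 CPM. miR-223-3p of granulocytes and monocytes was low at both ages, 3.32 to 12.5 CPM and 3.13 to 9.10 CPM, and was not called (-0.39 ± 0.51). The summed level of the list was 209 to 295 CPM at day 1 and 721 to 1173 CPM at month 6, with miR-150 and miR-155-5p making up most of it at both ages. Of 5 tested, 2 rose and 1 fell, and the part of leukocytes in other changes was not tested. Red cell miR-451-5p gave 0.12 ± 0.64 and was not called, while its low neighbour miR-144-5p fell by 2.26 ± 0.70 (adjusted p = 0.0140), from 1.52 to 4.55 CPM to 0.142 to 0.936 CPM. Without month 6 replicates 4 and 5 miR-144-5p was not called (-1.98, adjusted p = 0.0729). The liver marker miR-122 was at most 7.76 CPM.

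The miR-17-92 cluster and its paralogs promote proliferation and are high in embryonic tissue. Of 16 members tested, 7 rose and 3 fell, and the median was -0.21. The counts were 6 and 5 without month 6 replicates 4 and 5, or 7 higher and 5 lower under the size factors of DESeq2 and 7 higher and 7 lower under its Wald test. The member with the most counts, miR-92a-3p, was at 2049, 1719.7, 2320.0, 3032 and 1931 CPM at day 1 and 13026, 12082, 12717, 36255 and 23246 CPM at month 6. The ages were separated by about 4 times even at their nearest, and the log2 change was 3.25 ± 0.51 (adjusted p = 8.46e-05). The 5p products of its neighbours in the cluster were not called higher. miR-17-5p gave -0.89 ± 0.50 (adjusted p = 0.146), and miR-20a-5p -1.29 ± 0.57 (adjusted p = 0.0647). miR-19b-3p, the main arm of its hairpin here, gave -1.80 ± 1.07 (adjusted p = 0.171) and was not called either. Without month 6 replicates 4 and 5, miR-20a-5p and miR-19b-3p were called lower, at -1.82 and -4.41. In the paralogous cluster of miR-106b, miR-93 and miR-25, 4 of 6 entries rose. miR-25-5p rose by 3.31 ± 0.44 (adjusted p = 2.14e-05) from 1.88, 2.09, 2.13, 2.35 and 2.14 CPM to 15.4, 16.6, 20.5, 29.3 and 18.6 CPM, whereas the main arm miR-25-3p, at 2969 to 3526 CPM and 4971 to 8561 CPM, rose by 0.87 ± 0.28, a call lost without month 6 replicate 3 (0.63). The call of miR-25-3p was also lost under the stricter filter. miR-106b-3p rose by 1.44 ± 0.30, and miR-106b-5p was not called at -1.72 ± 0.74 (adjusted p = 0.0622). All 5 month 6 libraries of miR-106b-5p lay below all of day 1, at 6.76 to 42.9 CPM against 63.5 to 108 CPM. It was called lower in 12 of the 19 alternatives, among them the fit without replicates 4 and 5 (-2.97 ± 0.84, adjusted p = 0.00866).

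In the miR-15, miR-16, miR-195 and miR-497 family, which restrains the cell cycle, 1 of 8 members rose (miR-195-3p, above) and 2 fell, miR-15a-5p (-2.19 ± 0.54) and miR-15b-3p (-1.07 ± 0.43). The last call was lost in 14 of the 18 alternatives that tested it, including the fit without replicates 4 and 5 (-0.91), and without each of 8 single libraries (-1.36 to -0.87). The median was 0.04 and changed sign with DESeq2 size factors and with library totals alone, so no direction is given for the family. miR-195-5p, the arm that carries the family seed, was only at 0.402 to 1.86 CPM and 0.128 to 2.99 CPM. In the X-linked cluster of miR-424 and miR-503, miR-542-3p fell from 1231, 756, 453, 523 and 267 CPM to 55.6, 37.7, 74.9, 78.1 and 265 CPM. All month 6 libraries were below day 1, replicate 5 by little, and the log2 change was -2.59 ± 0.70 (adjusted p = 0.00615). miR-450-5p fell by 1.29 ± 0.35, from 232 to 596 CPM to 46.0 to 251 CPM, and was not called with no filter on low counts (-0.90). The 2 arms of miR-424 parted. miR-424-3p rose by 2.19 ± 0.44 (adjusted p = 6.41e-04), from 38.7, 28.2, 21.3, 41.3 and 22.8 CPM to 156, 166, 195, 62.5 and 112 CPM. miR-424-5p, which shares the seed of the miR-15 family, was at 85.2, 189, 85.4, 159 and 122 CPM and then 6.25, 6.15, 17.1, 40.4 and 59.0 CPM. All of its month 6 libraries were lower, but the change of -2.18 ± 0.93 was not called (adjusted p = 0.0596) with replicates 4 and 5 and was called at -3.80 ± 1.11 without them.

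The imprinted DLK1-DIO3 cluster, expressed from the maternal chromosome and linked to fetal growth, held more of the falls than any other list, and it is also the longest list. Of 51 members tested, 21 fell and 6 rose, or 4 higher and 24 lower without replicates 4 and 5. The median log2 change was -0.89. In 19 members all month 6 libraries were below day 1 and in 3 all were above. Over the 331 miRNAs tested, these numbers were 70 (21.1%) and 68 (20.5%). miR-382-3p was at 366, 403, 329.7, 413 and 367 CPM at day 1 and 89.1, 50.6, 124, 69.3 and 143 CPM at month 6. The 2 ages were more than 2 times apart at their nearest, and the log2 change was -1.95 ± 0.37 (adjusted p = 4.82e-04). miR-379-5p, the first hairpin of the large group and one of its most abundant, fell from 4939.9, 5391, 3689, 3878 and 2908 CPM to 1576, 1209.9, 2244, 812 and 1958 CPM. No libraries overlapped, and the change was -1.40 ± 0.28 (adjusted p = 6.25e-04). miR-411a-5p, next to it, fell by 1.86 ± 0.53, from 1089 to 2333 CPM to 216 to 788 CPM, and the lower miR-411b-5p (-3.09 ± 1.06, or -5.30 without replicates 4 and 5). Both arms of miR-3959 fell, the 5p (-2.03 ± 0.43) and the 3p (-3.44 ± 0.60). miR-369-3p fell by 1.91 ± 0.49 and miR-1197-3p (-4.46 ± 0.94), the last from 3.14 to 7.75 CPM to 0 to 0.825 CPM.

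Some members of the cluster did not follow. miR-433 rose by 2.06 ± 0.61 (adjusted p = 0.0112), from 46.1, 19.8, 20.4, 16.2 and 14.8 CPM to 101, 115, 104, 41.0 and 128 CPM, with month 6 replicate 4 inside the day 1 range. miR-485-5p rose by 1.71 ± 0.43 (adjusted p = 0.00344), from 28.8 to 61.7 CPM to 101 to 187 CPM, with no overlap. The other 4 that rose were miR-485-3p (2.11 ± 0.68), miR-154b-5p (1.27 ± 0.43), miR-543-3p (1.15 ± 0.44) and miR-329b-3p (1.11 ± 0.35). The calls of miR-485-3p and miR-329b-3p were lost without month 6 replicates 4 and 5 (1.72 and 0.80), and those of miR-154b-5p and miR-329b-3p under the stricter filter. Single libraries decided 3 of these calls: that of miR-485-3p was lost without day 1 replicate 2 or 5 (1.73 to 2.45), that of miR-154b-5p without day 1 replicates 2, 3 or 4 or month 6 replicates 1, 2 or 3 (1.04 to 1.53), and that of miR-543-3p without any day 1 library or month 6 replicates 1 to 3 (0.90 to 1.31). The call of miR-543-3p was lost in 13 of the 19 alternatives, those with other scalings (1.02 and 1.15), the stricter filter (0.88), the Wald test of DESeq2 (1.02) and the replicate block (1.10) included. miR-127-3p, the most abundant member at 8322 to 14129 CPM and 9495 to 20588 CPM, was not called (0.53 ± 0.30, adjusted p = 0.149). With it in the sum, the level of the whole cluster overlapped between the ages, at 16752 to 27083 CPM and 12611 to 28478 CPM. miR-136-3p fell from 262, 368, 184, 206 and 232 CPM to 7.40, 6.55, 10.9, 57.5 and 107 CPM. All month 6 libraries were lower, replicates 4 and 5 less so, and the call at -2.60 ± 1.04 (adjusted p = 0.0464) was lost without any 1 of 5 libraries, day 1 replicates 2 and 4 and month 6 replicates 2, 3 and 4 (-3.32 to -2.47). Without both month 6 replicates 4 and 5 it stood at -4.98 ± 1.23.

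**Figure D2:**
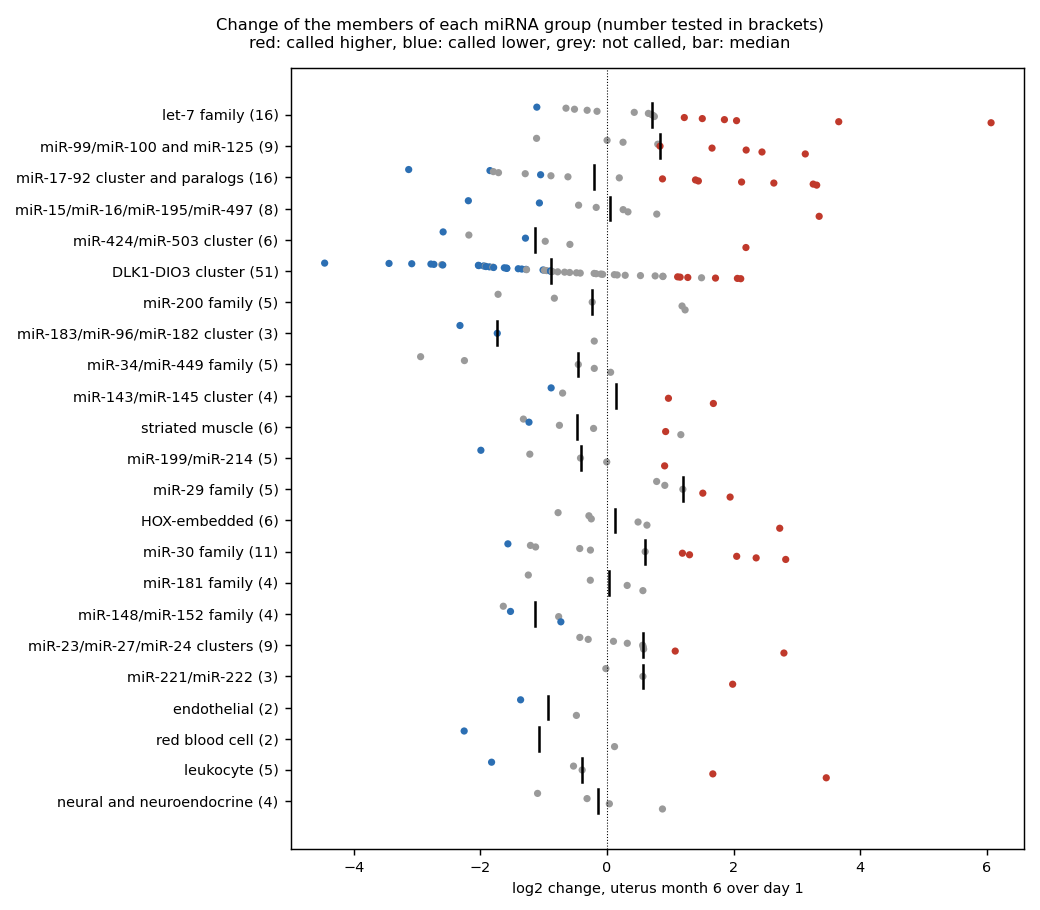
Log2 change from day 1 to month 6 in uterus for each tested member of 23 groups of miRNAs, 1 row a group with the number tested in brackets; red points were called higher, blue points lower, grey points not called, and the bar is the median. The DLK1-DIO3 row holds 21 blue and 6 red points, and the miR-99, miR-100 and miR-125 row holds red points and no blue one in this fit with all libraries.

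Of the 5 miR-199 and miR-214 entries tested, miRNAs of fibroblasts and stroma, 1 rose and 1 fell, with a median of -0.42. Without month 6 replicates 4 and 5, 1 was higher and 3 lower, with a median of -0.89. miR-199b-5p fell from 11027, 12754, 12056, 13220.2 and 12915 CPM to 2449, 2364, 4512, 1777 and 4313 CPM. All month 6 libraries were far below all day 1 libraries. The log2 change was -1.99 ± 0.39 (adjusted p = 6.07e-04), or 3.98-fold down. miR-199a-3p, one of the 20 most abundant miRNAs, overlapped between ages and was not called (-0.42 ± 0.34), although it was called lower without replicates 4 and 5 (-0.89). miR-214-3p, from the same transcript as miR-199a, rose by 0.91 ± 0.33 (adjusted p = 0.0285). That call was lost under the stricter filter. It was also lost without any 1 of day 1 replicates 1, 3, 4 and 5 and month 6 replicates 1 and 3, with changes of 0.73 to 1.01. The other arms, miR-199a-5p (-1.22, adjusted p = 0.0618) and miR-214-5p (-0.006), were not called. miR-21-5p, induced by growth signals and in fibrosis, fell from 34693, 26465, 50545, 14772 and 19361 CPM to 5682, 7399.6, 10208, 7691 and 10023 CPM. Every month 6 library was below every day 1 library, and the change was -1.82 ± 0.53 (adjusted p = 0.00937). It was named after its values were seen. In the miR-29 family, which represses collagen genes, all 5 members had positive log2 changes and 2 were called higher. miR-29a-3p was at 110.3, 143, 263, 209.7 and 581 CPM and 338, 714, 603, 1990.2 and 1019 CPM, with overlapping ages, and its call at 1.94 ± 0.74 (adjusted p = 0.0373) was lost without replicates 4 and 5 (0.92). It was also lost with the replicate block and without any 1 of day 1 replicates 1 to 4 and month 6 replicates 2 and 4 (1.34 to 2.33). miR-29b-5p rose by 1.51 ± 0.57, from 0.615 to 2.85 CPM to 1.79 to 6.96 CPM, a call lost without any 1 of day 1 replicates 1 to 4 and month 6 replicates 2 and 3 (1.00 to 2.02). DESeq2 size factors and the replicate block lost it as well. Of the 3 tested entries of miR-221 and miR-222, which promote division of smooth muscle cells, miR-222-3p rose by 1.98 ± 0.34 (adjusted p = 1.73e-04), from 140.2, 134, 318, 201 and 239.7 CPM to 610.3, 899.9, 647, 883 and 975 CPM. Its ages did not overlap, with replicates 4 and 5 among the higher month 6 libraries.

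The epithelial groups gave few calls. None of the 5 miR-200 family members was called. miR-200b, the most abundant of them, was at 7015, 3798, 12505, 7489 and 12864 CPM at day 1 and 27976, 44671, 23370.0, 3872 and 4792 CPM at month 6. Replicates 1 to 3 of month 6 were above all day 1 libraries and replicates 4 and 5 were at the low end of day 1. The change was 1.18 ± 0.61 (adjusted p = 0.113), and 1.74 ± 0.55 (adjusted p = 0.0153) without replicates 4 and 5. miR-200c gave 1.23 ± 0.53 (adjusted p = 0.0609) and, without them, 1.43 (adjusted p = 0.0426). miR-200a, miR-429 and miR-141 were at -0.24 ± 0.62, -0.83 ± 0.67 and -1.72 ± 0.84 and were called in neither fit. With DESeq2 size factors miR-141 was called lower (-1.97, adjusted p = 0.0412). miR-182, from a sensory and epithelial cluster, fell from 215, 186, 713, 674 and 559 CPM to 244, 235, 134, 23.6 and 103 CPM, with overlapping ages (-1.73 ± 0.56, adjusted p = 0.0170), and the call was lost without replicates 4 and 5 (adjusted p = 0.0629). The call of miR-182 was also lost with no filter on low counts. Its neighbour miR-183 was not called (-0.20 ± 0.60). Of the 3 members of this cluster tested, 2 were called lower, miR-182 and miR-96, and the median was -1.735. miR-96 had the largest change of the 3, at -2.32, and its ages overlapped too. Without replicates 4 and 5, miR-96 was the 1 member still called lower, and the median was -1.31.

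miR-34c-5p, a marker of ciliated epithelium and germ cells, ranged over more than 2 orders of magnitude within day 1. Its libraries read 124, 209.8, 3864, 143 and 20233 CPM at day 1 and 88.8, 96.6, 3157, 28.7 and 61.2 CPM at month 6. Day 1 replicates 3 and 5 and month 6 replicate 3 were high and all others were at or below 209.8 CPM. It was not called (-2.95 ± 1.71, adjusted p = 0.158), and none of the 5 miR-34 and miR-449 entries tested was. Single libraries set its value, which was -0.86 without day 1 replicate 5 and -6.34 (adjusted p = 0.0151, called lower) without month 6 replicate 3. Among miRNAs embedded in HOX clusters, which carry positional identity, miR-10a-5p and miR-10b-5p were among the 10 most abundant miRNAs and were not called. miR-10a-5p was high in the same day 1 replicates 3 and 5, at 23641, 14126, 74625, 18556 and 60841 CPM, and miR-10b-5p was low in them, at 63609.8, 86019.7, 37060.3, 124424 and 23299 CPM. miR-196a rose by 2.73 ± 0.96 (adjusted p = 0.0268), from 38.8, 29.1, 11.1, 14.8 and 11.99 CPM to 278, 289, 124, 2.42 and 31.2 CPM, but month 6 replicate 4 lay below all of day 1. The call was lost without day 1 replicate 3, 4 or 5 or month 6 replicate 1 or 2, with changes of 2.36 to 3.11 as single libraries were left out. miR-196b was not called (-0.25 ± 0.44).

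In the miR-30 family, 5 of 11 entries rose and 1 fell, against 4 and 4 without replicates 4 and 5. miR-30f-5p rose by 2.82 ± 0.60 (adjusted p = 9.24e-04), from 119 to 210.0 CPM to 257 to 1944 CPM, without overlap. miR-30a-5p, the most abundant member, was at 4461 to 8709 CPM and 1656, 2858, 1421, 4969 and 5909 CPM and was not called (-1.13 ± 0.66, adjusted p = 0.163), but was called lower without replicates 4 and 5 (-2.07). In the miR-148 family both arms of miR-148b fell, miR-148b-3p (-0.73 ± 0.25) and miR-148b-5p (-1.53 ± 0.36), the former not called with no filter on low counts (-0.45). miR-148a-3p, the third most abundant miRNA, was at 69537, 78916, 82274, 82038 and 87949.9 CPM at day 1 and 9744, 11186, 11846, 40479 and 45894 CPM at month 6. All month 6 libraries were lower than all of day 1, replicates 1 to 3 by at least 5 times. Its change of -1.64 ± 0.72 missed the threshold (adjusted p = 0.0663) and was called without replicates 4 and 5, at -2.97 ± 0.83 (adjusted p = 0.00812). With DESeq2 size factors or library totals alone, all 4 miR-148 entries were called lower. Of the endothelial pair, miR-126-5p fell by 1.37 ± 0.41 (adjusted p = 0.0117), and miR-126-3p, at 4974 to 7648 CPM and 2990.1 to 6411 CPM, was not called (-0.48 ± 0.31). Without replicates 4 and 5 miR-126-3p was called lower too (-0.89 ± 0.35, adjusted p = 0.0413). Of 9 entries of the miR-23, miR-27 and miR-24 clusters, the minor arms miR-23b-5p (2.79 ± 0.57) and miR-27b-5p (1.08 ± 0.35) rose and none fell, while miR-27a-3p was called lower without replicates 4 and 5 (-1.498). The call of miR-27b-5p was lost under the stricter filter and without day 1 replicate 1, 3 or 5 or month 6 replicate 1 or 2 (0.71 to 1.25). The abundant miR-27b-3p was at -0.30 ± 0.30 and not called. No member was called among 4 tested of the miR-181 family and 4 of neural and neuroendocrine miRNAs. Without replicates 4 and 5, miR-181c-3p was called lower (-1.87) and miR-9-5p higher (1.37).

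The remaining falls named by size were outside these groups. miR-708-5p, encoded within a teneurin gene in mammals, fell from 110.1, 106, 219.7, 69.2 and 146 CPM to 13.7, 32.9, 21.9, 16.8 and 33.3 CPM, with no overlap and a log2 change of -2.47 ± 0.72 (adjusted p = 0.00999). miR-335-5p, from the imprinted MEST gene, fell by 2.34 ± 0.70, from 21.9 to 76.2 CPM to 3.61 to 18.5 CPM. miR-218, encoded within SLIT genes, fell by 1.95 ± 0.64, from 391 to 874 CPM to 71.8 to 258 CPM. miR-135a fell by 1.93 ± 0.63 and miR-135b-5p (-4.20 ± 0.91), the latter from 10.1 to 19.1 CPM to 0 to 2.34 CPM. miR-340-5p fell by 1.87 ± 0.66, miR-454-3p (-1.93 ± 0.39), miR-345-3p (-1.80 ± 0.40) and miR-33a-3p, from an intron of a sterol regulator gene (-3.17 ± 0.70). In all 9 the lowest day 1 library was above the highest at month 6, and all 9 were also called without replicates 4 and 5. The changes were then -3.50 for miR-335-5p, -2.999 for miR-218 and -2.90 for miR-340-5p.

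Of the 15 most abundant miRNAs, 7 rose or fell and 8 were not called. Beside those above, miR-26a-5p was at 32669 to 58854 CPM and 33859.8 to 96264 CPM and was not called (0.48 ± 0.41, adjusted p = 0.336). Its highest libraries were month 6 replicates 4 and 5, at 96264 and 69820.0 CPM.

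Leaving out replicates 4 and 5 added calls for 51 miRNAs, 8 higher and 43 lower. The filter then kept a different set, so some of these had not been tested with all 5 month 6 libraries. Among the 331 miRNAs tested with all 5, the calls without the 2 libraries were 81 higher and 88 lower. Among all 347 of that fit they were 82 and 94. Some of the 51, such as miR-148a-3p, were also called under other settings that kept these libraries. Several of them had moved in replicates 1 to 3 and stayed near day 1 in replicates 4 and 5. miR-101-3p, which targets chromatin modifiers, is one. It was at 6404, 4074, 2746, 3009 and 3362 CPM at day 1, at 135, 226 and 272 CPM in month 6 replicates 1 to 3 and at 4966 and 4663 CPM in replicates 4 and 5. The last 2 were inside the day 1 range, and the first 3 were at least 10 times below it. The change was -0.75 ± 1.13 (adjusted p = 0.595) over all 5 and -4.30 ± 1.29 (adjusted p = 0.0119) over the 3. miR-30e-5p was at 423 to 561 CPM at day 1, 31.4, 40.1 and 65.1 CPM in replicates 1 to 3 and 383 and 437 CPM in replicates 4 and 5, with changes of -1.21 and -3.54. miR-381 of the DLK1-DIO3 cluster gave -0.99 over all 5 and -3.10 over the 3, and miR-19b-3p -1.80 and -4.41. These miRNAs were picked after their values were seen. In the other direction, 16 higher and 14 lower calls were lost without the 2 libraries. Counted over the 90 higher calls, month 6 replicates 1 to 5 lay above the day 1 range in 86, 89, 86, 76 and 83, and over the 65 lower calls they lay below it in 60, 63, 58, 64 and 59, in calls made from a fit that holds these same libraries.

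**Figure D3:**
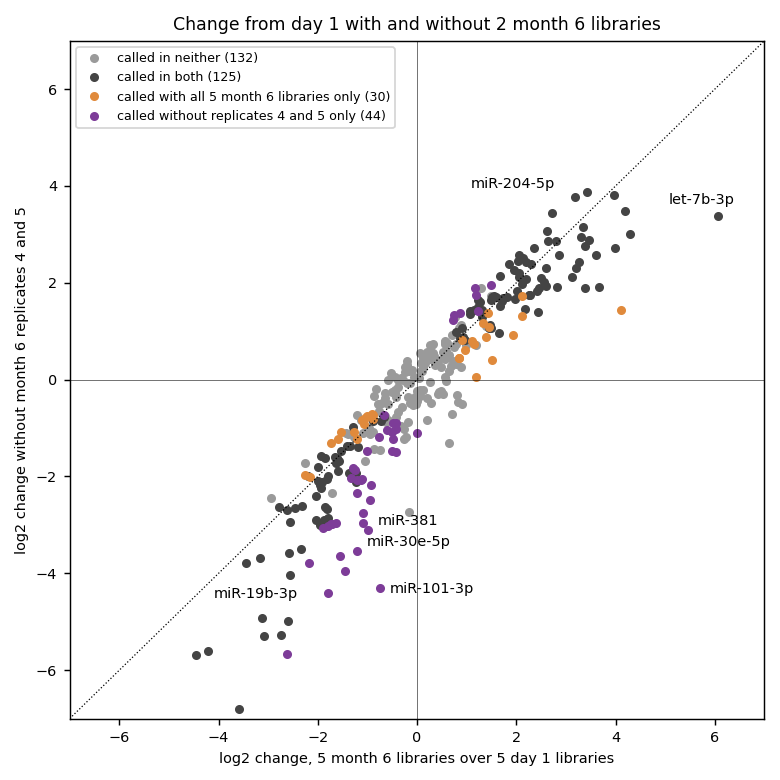
Log2 change from day 1 with all 5 month 6 libraries (horizontal) against the change without month 6 replicates 4 and 5 (vertical), 1 point for each miRNA tested in the 5-library fit, coloured by the fit or fits in which it was called; the dotted line marks equality. Both axes share the day 1 libraries and 3 month 6 libraries, and points lie far below the line both where replicates 4 and 5 stayed near day 1, such as miR-101-3p (-0.75 and -4.30), and where they were far above it, such as let-7b-3p (6.06 and 3.38).

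The ages between were looked at for the same miRNAs. Median CPM at day 1 and months 2, 4 and 6 was 40.2, 133, 348 and 317 for miR-195-3p, 36.8, 269.6, 564 and 489.8 for miR-150 and 8785, 21820.0, 19559 and 25229.8 for miR-145-5p. For miR-92a-3p it was 2049, 14205, 19498 and 13026. In these 4 the month 2 median already lay above the highest day 1 library. The falls had the same form, with medians of 12754, 3623, 1840.3 and 2449 for miR-199b-5p, 3878, 1658, 1075 and 1576 for miR-379-5p and 26465, 3206, 4710.1 and 7691 for miR-21-5p, each below the lowest day 1 library by month 2. miR-101-3p went through 3362, 249, 419 and 272, so that the month 2 and month 4 medians were close to month 6 replicates 1 to 3 and not to replicates 4 and 5. The highest single library was at 3832 CPM at month 2 and 4060.2 CPM at month 4, both within the day 1 range. For let-7a-5p the medians were 20812, 88986, 96679.8 and 92586, again near replicates 1 to 3. miR-200b differed, with medians of 7489, 7435, 5239.9 and 23370.0, level until month 4 and higher at month 6. Its month 6 replicates 4 and 5 were at the low end of day 1, and the change of miR-200b was not called (adjusted p = 0.113). These medians are descriptions, and steps between successive ages were not tested here.

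**Figure D4:**
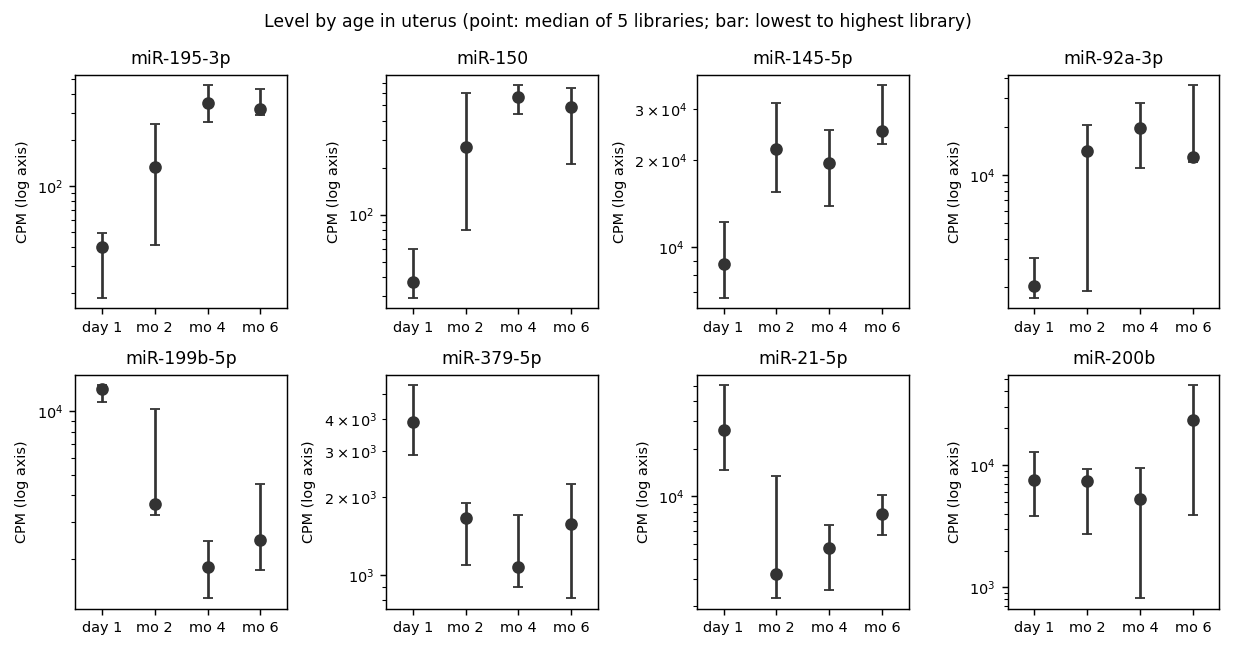
Level of 8 miRNAs in uterus at day 1 and months 2, 4 and 6 in CPM on a log axis; points are medians of 5 libraries and bars reach from the lowest to the highest library. Medians of miR-145-5p and miR-92a-3p are already high and those of miR-199b-5p, miR-379-5p and miR-21-5p already low at month 2, and bars at month 2 are wide for miR-92a-3p and miR-199b-5p.

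Because each hairpin yields 2 arms from 1 precursor, the ratio of 5p to 3p counts within a library needs no scaling between libraries. Both arms were tested for 102 hairpins, and the log2 ratio, with 0.5 added to each count, differed between month 6 and day 1 in 40 of them, 39.2%, by limma with an adjusted p under 0.05. It moved toward the 5p arm in 17 (16.7%) and toward the 3p arm in 23 (22.5%). Without month 6 replicates 4 and 5 there were 49 calls (48% of the 102), 35 of them shared.

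miR-18a, of the miR-17-92 cluster, was the 1 hairpin with arms called in opposite directions. miR-18a-5p fell by 3.13 ± 0.94 (-4.93 without month 6 replicates 4 and 5) and miR-18a-3p rose by 2.12 ± 0.52, and both were under 6 CPM in all 10 libraries. The log2 ratio was 2.84, 3.74, 0.27, 1.34 and 0.45 at day 1 and -4.75, -5.29, -4.39, -3.41 and -2.06 at month 6. The more abundant arm was thus 5p in every day 1 library and 3p in every month 6 library. The change was -5.71 ± 1.02 (adjusted p = 5.19e-04). In miR-424 the ratio went from 1.14, 2.75, 2.00, 1.95 and 2.41 to -4.62, -4.74, -3.51, -0.63 and -0.93, again positive in all day 1 and negative in all month 6 libraries, by -4.93 ± 1.22 (adjusted p = 0.00496). miR-455 differed between the ages in the same way, with a mean ratio of 1.26 ± 0.22 (SD, n = 5) at day 1 and -1.66 ± 0.83 (SD, n = 5) at month 6. Its change was -2.92 ± 0.67 (adjusted p = 0.00318), as miR-455-5p fell by 1.85 ± 0.69 (-3.03 without replicates 4 and 5) and miR-455-3p was not called (0.72 ± 0.31). The mean ratio of 9 hairpins changed sign, and 6 of these were called: miR-105b, miR-18a, miR-324, miR-382, miR-424 and miR-455.

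The other 7 of the 10 largest ratio changes toward 3p were -4.40 for miR-195, -3.56 for miR-106b, -2.67 for miR-671, -2.64 for miR-127, -2.62 for miR-30b, -2.34 for miR-324 and -2.19 for miR-34c. Toward 5p, miR-25 moved from -10.77, -10.60, -10.40, -10.51 and -10.61 to -8.32, -8.48, -8.70, -7.53 and -8.06. The ages did not overlap, and the change of 2.36 ± 0.36 had the smallest p of the 102 (adjusted p = 2.46e-04). The other 9 of the 10 largest changes toward 5p were 2.66 for miR-374b, 2.66 for miR-105b, 2.25 for miR-23b, 2.12 for miR-382, 2.08 for miR-542, 1.93 for miR-130b, 1.86 for miR-193b, 1.79 for miR-1306 and 1.75 for miR-99a. miR-105b had means near 1 CPM on both arms. Means over the 10 libraries were also low for miR-1306-3p (0.66 CPM), miR-195-5p (1.34 CPM) and both arms of miR-324 (3.31 and 1.55 CPM). The same holds for miR-542-5p and miR-671-5p (3.24 CPM each) and miR-130b-3p (4.65 CPM). Ratios with such an arm rest on few counts. Reads of miR-193b-3p cannot be told apart from those of miR-193a, so the miR-193b ratio may mix 2 hairpins. In miR-382 of the DLK1-DIO3 cluster the month 6 ratios were 2.17, 2.60, 1.93, -0.06 and 0.37, higher in replicates 1 to 3 than in replicates 4 and 5, against -0.72 ± 0.26 (SD, n = 5) at day 1. Both arms were called in the same direction in 24 hairpins, 19 higher and 5 lower, the 5p arm alone in 19, the 3p arm alone in 28 and neither in 30.

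**Figure D5:**
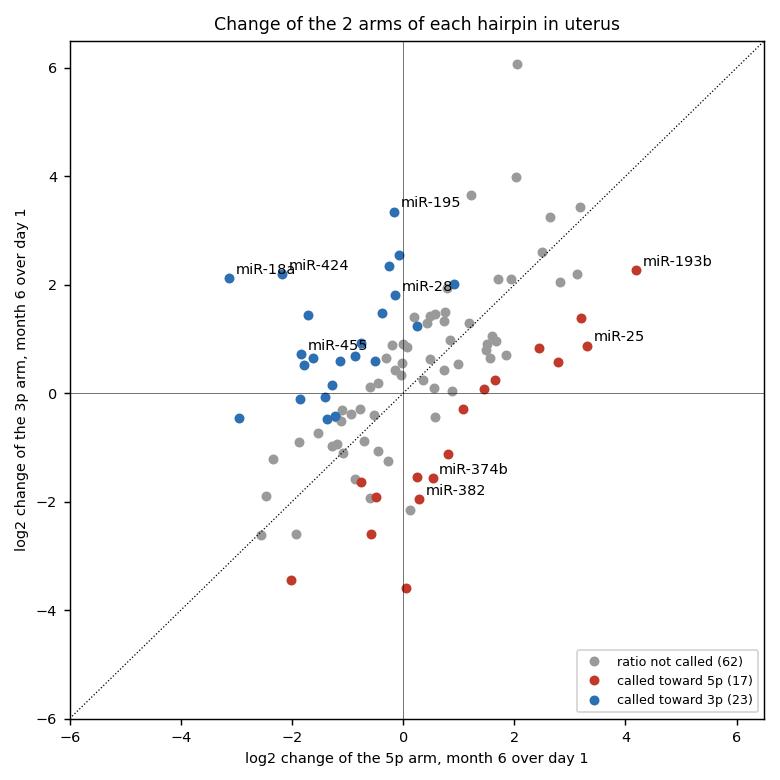
Log2 change of the 5p arm (horizontal) against that of the 3p arm (vertical) from day 1 to month 6 in uterus for 102 hairpins; red points had a 5p to 3p ratio called higher at month 6, blue points a ratio called lower, grey points neither. miR-18a lies at -3.13 and 2.12, the one hairpin with both arms called and opposite, while 24 hairpins had both arms called in 1 direction.

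Hairpins that lie close together in the genome are often cut from 1 transcript. With neighbours defined as miRNA genes within 10 kb of each other in the RefSeq annotation of assembly ARS1.2, 261 of the 263 hairpin names matched and 37 groups held at least 2 tested miRNAs. The group from miR-379 to miR-656, the larger part of the DLK1-DIO3 cluster, had 18 of 42 called lower and 5 higher. The group of miR-106b, miR-93 and miR-25 had 4 of 6 called higher and none lower, or 3 higher and 1 lower without month 6 replicates 4 and 5. In the pair of miR-301a and miR-454, 2 of 3 fell, miR-454-3p as above and miR-301a-5p (-1.65 ± 0.38). The pair of miR-191 and miR-425 had 2 of 4 higher, miR-191-5p by 1.596 ± 0.27 and miR-191-3p by 1.06 ± 0.37. The latter call was lost without any 1 of the 5 day 1 libraries or of month 6 replicates 1 to 3 (0.70 to 1.25). It was also lost with DESeq2 size factors, the stricter filter and the replicate block. Other groups split, such as miR-143 with miR-145 and miR-30b with miR-30d, where miR-30b-3p rose by 2.35 ± 0.42 and miR-30d-3p fell by 1.57 ± 0.49. The genome build of the deposited counts is not given in the sources used here, so no positions are printed.

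The same ages were compared in the ovary to ask whether the change differs between the organs. In ovary 167 of 317 miRNAs, 52.7%, were called at month 6 against day 1. Ovary day 1 replicate 3 stood apart, with miR-143-3p at 73.3% of its counts. In the other ovary day 1 libraries the most abundant miRNA held 12.4% to 22.7%. The difference of the 2 changes was tested in 1 edgeR fit over all 40 libraries, and 0 of 350 miRNAs, 0%, passed. Without ovary day 1 replicate 3 the number that passed was also 0. The labels do not say whether ovary and uterus libraries of the same number came from 1 goat. The fit over all 40 libraries treated them as independent. At an unadjusted p under 0.05 there were 35, 10% of those tested, and the Wald test of DESeq2 called 3, miR-9-5p and the near-identical miR-193a and miR-193b-3p. For the clearest rises in uterus the ovary gave 2.70 ± 0.43 for miR-195-3p, 3.21 ± 0.58 for miR-150 and 1.73 ± 0.25 for miR-365-3p. For the falls it gave -2.48 ± 0.32 for miR-199b-5p and -3.16 ± 0.46 for miR-382-3p. None of these differences between organs passed the test, which does not show that the organs changed alike.

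The smallest p for a difference between the organs belonged to miR-9-5p, a miRNA best known from the nervous system. Its uterus libraries read 999, 1680.0, 510.3, 1429 and 407 CPM at day 1 and 2527, 3759.7, 1516, 322 and 1083 CPM at month 6, with overlap. The change was 0.87 ± 0.51 in uterus (adjusted p = 0.159, not called with all 5 month 6 libraries) and -1.76 ± 0.30 in ovary (adjusted p = 1.05e-04). Uterus minus ovary was 2.47 ± 0.61 (adjusted p = 0.0866), above the threshold, and it passed in 20 of the 29 alternatives run. Among these was leaving out any 1 of ovary day 1 replicates 1, 2, 4 and 5, ovary month 6 replicates 1 and 4, uterus day 1 replicates 1 to 5 and uterus month 6 replicates 3, 4 and 5 (2.61 to 3.03). Without uterus month 6 replicates 4 and 5 it was 3.34 (adjusted p = 4.53e-05). miR-193a and miR-193b-3p, with nearly the same counts, were called in 6 of the 29. miR-193b-3p rose by 2.26 ± 0.38 in uterus and gave -0.27 ± 0.55 (adjusted p = 0.709) in ovary.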

How the data were processed

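Small RNA of 20 uterus and 20 ovary libraries had been sequenced by the authors. The deposited table holds whole read counts per mature miRNA, made by the authors and not normalized. RSEM 1.3.0, cutadapt 1.16 and Bowtie 1.0.1 are listed in the submitters' processing notes without saying which did what. The build, the annotation and the handling of reads with several matches are not given in the sources used here. Groups were taken from the labels, 5 libraries each. Counts of the 20 uterus libraries were fitted in R 4.3.3 with edgeR 4.0.16 (filterByExpr, TMM, quasi-likelihood test, Benjamini-Hochberg adjustment over the 331 miRNAs), and the SE is the log2 change over the square root of F. The common biological coefficient of variation was 0.598. Arm ratios were tested with limma 3.58.1. DESeq2 1.42.0, other scalings and filters, a replicate block, fewer groups and left-out libraries were alternatives, those leaving out 2, 4 or 7 libraries that stood apart being added after seeing the data. The steps were run on simulated data whose counts had a smaller spread than these data, so that run gives no power or error rate for them. Members and lists were chosen with earlier results of these data known. Named miRNAs were the 15 largest changes a direction among calls of at least 10 CPM, the 10 smallest p a direction, the 15 most abundant, and members of lists. Partner arms and neighbours of these, miR-21-5p, miR-101-3p, miR-30e-5p and miR-191-5p were chosen after their values were seen. Libraries are numbered individuals, and p-values measure the spread between them. No mature sequences were used here.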

Additional observations from a re-analysis of the deposited data

Results flagged for a closer look

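Dixon's criterion at the 95% level asks whether 1 of 5 libraries lies too far from the other 4. It was applied to 258 groups, 129 miRNAs at 2 ages, and marked 16, where chance marks about 1 in 20 groups. The number marked is near that share, so any single mark below may be chance. At day 1, replicate 1 was low in miR-30a-5p (4461 CPM, others 8538 to 8709) and in miR-195-5p (0.402 CPM, others 1.66 to 1.86). The same library was high in miR-20a-5p (656 CPM, others 447 to 497) and in miR-433 (46.1 CPM, others 14.8 to 20.4). Replicate 2 was high in miR-451-5p of red cells (78.0 CPM, others 28.1 to 37.4), and replicate 4 in let-7f-5p (59559 CPM, others 44713 to 47819). Replicate 5 was high in 2 epithelial miRNAs, miR-200a (5634 CPM, others 2469.9 to 3158) and miR-141 (54.1 CPM, others 34.8 to 39.6), and in miR-34c-5p (20233 CPM, others 124 to 3864).

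At month 6, replicate 3 was high in miR-34c-5p (3157 CPM, others 28.7 to 96.6) and in miR-25-3p (8561 CPM, others 4971 to 5951). Replicate 1 was high in miR-206 (619 CPM, others 30.2 to 195) and replicate 2 in miR-23b-5p (19.4 CPM, others 8.53 to 10.2). Replicate 5 was high in 3 miRNAs that fell with age, miR-542-3p (265 CPM, others 37.7 to 78.1), miR-1197-3p (0.825 CPM, others 0 to 0.142) and miR-18a-5p (1.10 CPM, others 0 to 0.285). The causes were not tested.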

How the results depend on the processing

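The number of calls at month 6 against day 1 in uterus stayed within 1.5 times of 155 under every setting run. It was 145 with a replicate block, 185 with no filter on low counts, 188 with DESeq2, 135 to 158 with single libraries left out, and 217 without 4 doubted libraries, which were month 6 replicates 4 and 5, month 2 replicate 1 and month 4 replicate 4 of uterus. Of the 129 miRNAs recomputed, 90 were called, and none of these reversed under any of the 19 settings in which it was tested; 81 of the 90 were also called without month 6 replicates 4 and 5. Sign changes were limited to miRNAs that were not called. With no filter, let-7f-5p came to 0.082, let-7g-5p to 0.24, miR-183 to 0.30, miR-196b to 0.18 and miR-200a to 0.22. Without month 6 replicates 4 and 5 the values were 0.041, 0.18, 0.39, 0.16 and 0.26 for the same miRNAs, -0.24 for miR-26a-5p and -0.32 for miR-99a-5p. Without 4 doubted libraries they were 0.031, 0.16, 0.35, 0.13, 0.23, -0.25 and -0.32. miR-451-5p came to -0.19 under the stricter filter, and miR-183 to 0.0081 with only the compared groups fitted. As single libraries were left out, miR-451-5p ran from -0.19 (without month 6 replicate 1) to 0.37 (day 1 replicate 2), let-7g-5p from -0.36 (month 6 replicate 2) to 0.011 (month 6 replicate 4), miR-183 from -0.79 (month 6 replicate 2) to 0.12 (month 6 replicate 4) and miR-200a from -0.80 (month 6 replicate 2) to 0.068 (day 1 replicate 5). For the difference between uterus and ovary, 1 miRNA was called with DESeq2 size factors, with no filter, with the stricter filter, without 2 month 6 libraries and without 7 doubted libraries (these 4, ovary month 6 replicates 2 and 4 and ovary day 1 replicate 3), 3 with DESeq2, 0 to 3 with single libraries left out and 0 with the replicate block. The arm ratio gave 31 to 43 calls with single libraries left out, 41 with the block and 63 without 4 doubted libraries. Replicate numbers restart at each age and a goat gives 1 uterus, so same-numbered day 1 and month 6 uterus libraries are not pairs. Their deviations from the age means had correlations of -0.271 to 0.379, 3 of 5 over 0.1. Of the 5 day 1 libraries, 1 matched best with its own number. Correlations between ovary and uterus libraries of the same number were not computed. Depth limits the low miRNAs, where 1 count is worth over 0.1 CPM. The cause of each change was not tested. Groups by shared seed were not run.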
